A study of Mus musculus with 9 samples.

Results

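The 8 genes described here, Cd79a, Cd79b, Ms4a1, Pax5, Ebf1, Cd22, Ighm and Blk, encode the B cell receptor and proteins of the B lineage, and they were followed through RNA sequencing libraries of sorted mouse plasmacytoid dendritic cells (pDCs). They were chosen by symbol, matched to the Ensembl gene identifiers of the deposited table. All 8 were found among its 57126 genes, and all 8 were among the 17555 that passed the filter on low counts. The 3 groups were pDCs treated with oxidized mitochondrial DNA (Ox-mtDNA), with mitochondrial DNA (mtDNA) or with phosphate-buffered saline (PBS, the vehicle), with 3 libraries in each group and 9 in all. The labels give no dose, time, mouse strain or age, and they do not say whether replicates came from separate cultures or animals, so a p-value here speaks only of how these samples spread. The comparisons ask how the level of these genes in sorted pDCs stood after each kind of mitochondrial DNA, against vehicle and against each other.

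A B cell senses antigen through surface immunoglobulin, whose heavy chain is first made as IgM from the Ighm gene. Immunoglobulin has almost no cytoplasmic tail, so the signal is passed on by the chains Cd79a (Ig-alpha) and Cd79b (Ig-beta), whose tyrosine motifs are phosphorylated by Src family kinases such as Blk and then recruit Syk. Cd22 is a sialic acid-binding receptor that dampens this signal, Ms4a1 is the surface protein CD20, and Ebf1 and Pax5 are the transcription factors that specify the B lineage and hold cells in it. Plasmacytoid dendritic cells share part of their origin with lymphoid cells, and some mouse pDCs carry rearrangements of the immunoglobulin heavy chain locus.

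Total counts per library ranged from 16029951 to 25378884. The pDC receptor Siglech was at 1194 to 2440 CPM (library-scaled counts, with TMM factors) in the 9 libraries. Replicate 3 of each group lay away from replicates 1 and 2 on a first principal component that held 70.7% of the variance. Xist, which silences an X chromosome in female cells, reached 2087 CPM in Ox-mtDNA replicate 3, 1928 CPM in mtDNA replicate 3 and 818 CPM in PBS replicate 3, with at most 0.846 CPM elsewhere, while Y chromosome genes together summed to 5.52, 3.15 and 1.18 CPM there and at 259 to 378 CPM elsewhere. Same-numbered libraries are therefore also compared with each other beside the fold changes. No gene of the 17555 passed an adjusted p of 0.05 in any comparison with edgeR's quasi-likelihood test, a background of 0% in each. DESeq2 called 328, 10 and 0 genes for Ox-mtDNA against PBS, mtDNA against PBS and Ox-mtDNA against mtDNA, none of them among the 8, and edgeR with the replicate number as a block called 1 gene in the first comparison, also outside the 8. At an unadjusted p under 0.05, 9.81% of genes passed for Ox-mtDNA against PBS, 2.62% for mtDNA against PBS and 2.4% for Ox-mtDNA against mtDNA.

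Sequence was taken from RefSeq promoter windows (250 bases before to 50 after the annotated start, build GRCm38.p6), in which 5 windows of 4 of the genes were found: Cd79a, Pax5, Cd22 and Ebf1, the last with 2. Each window was searched on both strands for the core of the EBF motif, CCCNNGGG, and for the octamer ATTTGCAT of immunoglobulin promoters. The stretches of the Cd79a and Cd22 windows outside annotated exons are shown, the first because Cd79a and Cd79b are the chains the results turn on, the second because it held the single EBF core; it was picked after that match was seen. Capitals mark the EBF core.
Cd79a, chr7:24897247-24897380, plus strand: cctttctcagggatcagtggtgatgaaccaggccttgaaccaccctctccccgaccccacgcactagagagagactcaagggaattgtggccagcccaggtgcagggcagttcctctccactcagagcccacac
Cd22, chr7:30879029-30879176, minus strand: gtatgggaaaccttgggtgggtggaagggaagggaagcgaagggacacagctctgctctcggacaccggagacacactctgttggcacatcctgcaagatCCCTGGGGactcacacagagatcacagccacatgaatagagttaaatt
The EBF core of Cd22 began 48 bases before the RefSeq start. The core was in 1 of the 5 windows and in 13.7% of the 32851 windows of the table, and the octamer was in 0 of the 5 and in 1.74% of the table. A match is a description of these letters and not of binding, and no match says only that the letters are not in the window.

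Ighm, the constant region of the IgM heavy chain (ENSMUSG00000076617, chr12:113382178-113386350, minus strand, GRCm39), is part of the antigen receptor of naive B cells. It had 2710, 2409 and 2705 CPM in replicates 1, 2 and 3 of Ox-mtDNA, 1511, 1833 and 2826 CPM in mtDNA, and 2115, 2291 and 2988 CPM in PBS. The 3 groups overlapped, and in the mtDNA and PBS groups replicate 3 was the highest library. Group means were 2608 ± 172 CPM for Ox-mtDNA, 2056 ± 685 CPM for mtDNA and 2465 ± 462 CPM for PBS (SD, n = 3 each). The fitted log2 fold change was 0.08 (SE 0.29, edgeR adjusted p = 0.9996) for Ox-mtDNA against PBS and -0.26 (SE 0.29, adjusted p = 1) for mtDNA against PBS.

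Per length, as TPM, Ighm was the highest of the 8 in all 9 libraries, at 2453 ± 180 TPM in Ox-mtDNA, 2222 ± 465 TPM in mtDNA and 2700 ± 271 TPM in PBS (SD, n = 3 each). The chains that signal for it were far lower: Cd79a averaged 102.5 ± 84.3 TPM in Ox-mtDNA, 52.8 ± 6.81 TPM in mtDNA and 96.4 ± 19.3 TPM in PBS. The ratio of Ighm to Cd79a in TPM was 36.6, 11.3 and 65.2 in Ox-mtDNA replicates 1, 2 and 3, 31.0, 47.1 and 49.9 in mtDNA, and 22.4, 25.2 and 40.3 in PBS. Ighm thus led in every library, and its distance from Cd79a ranged widest within Ox-mtDNA, where replicate 2 held the lowest ratio of the 9 libraries and replicate 3 the highest. Below Cd79a and Cd79b came Ms4a1 and Blk, whose TPM in PBS averaged 30.2 ± 3.59 and 33.8 ± 1.37 and whose order changed between libraries. Pax5, Cd22 and Ebf1 were the 3 lowest in every library, at 1.28 to 21.1 TPM, and their order also changed between libraries.

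**Figure D1:**
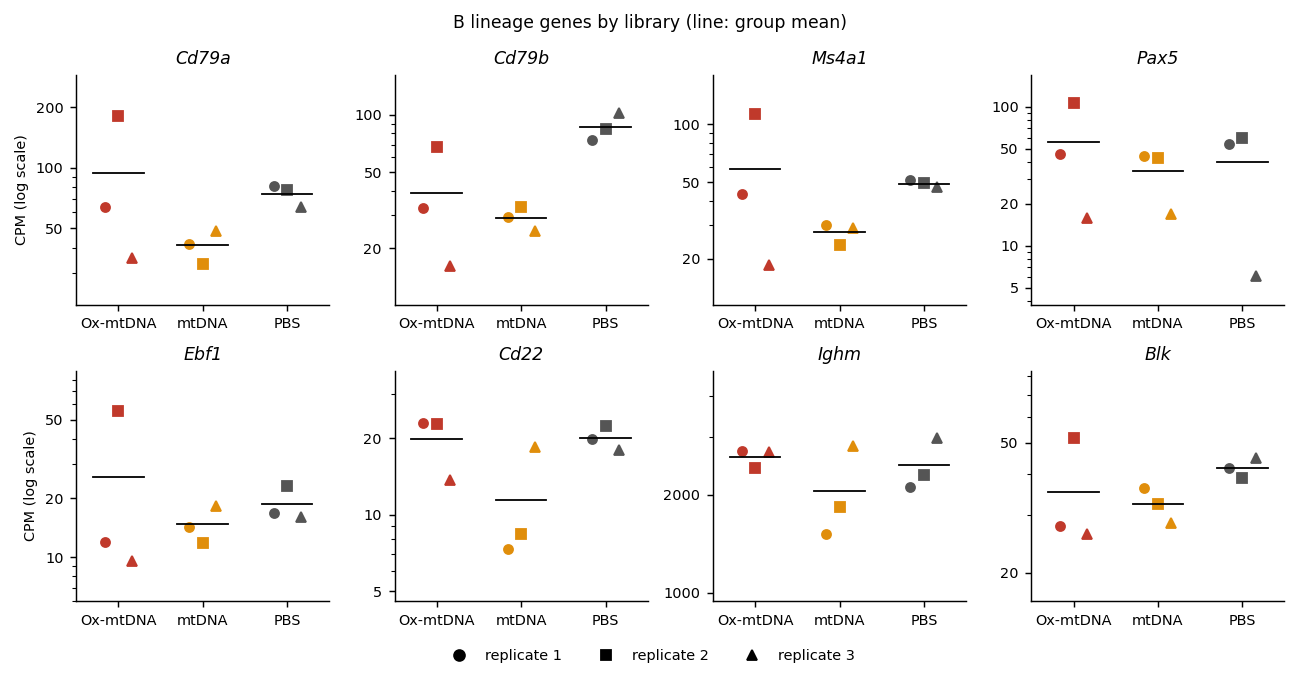
Level of each of the 8 genes in CPM on a log scale, by group and library, with symbols for the replicate number and a line for the mean of 3 libraries. The 3 mtDNA libraries lie below the 3 PBS libraries for Cd79a, Cd79b, Ms4a1 and Blk, and Ox-mtDNA replicate 2 is the highest of all 9 libraries for Cd79a, Ms4a1, Pax5, Ebf1 and Blk.

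Cd79b, the Ig-beta chain (ENSMUSG00000040592, chr11:106202167-106205588, minus strand), had the lowest fold change of the 8 against PBS after both treatments. It had 32.6, 67.7 and 16.2 CPM in replicates 1, 2 and 3 of Ox-mtDNA, 29.0, 33.0 and 24.6 CPM in mtDNA, and 73.6, 84.2 and 102 CPM in PBS. All 6 libraries given either DNA were below all 3 PBS libraries, and Ox-mtDNA replicate 2 was the one nearest to them. Means were 38.8 ± 26.3 CPM in Ox-mtDNA, 28.9 ± 4.16 CPM in mtDNA and 86.6 ± 14.3 CPM in PBS (SD, n = 3 each), so the mean was 0.449 times that of PBS after Ox-mtDNA and 0.334 times after mtDNA.

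For mtDNA against PBS the log2 fold change of Cd79b was -1.58 (SE 0.48, edgeR unadjusted p = 0.0103, adjusted p = 1). Libraries of the same number differed by -1.34, -1.35 and -2.05 in replicates 1, 2 and 3. For Ox-mtDNA against PBS it was -1.16 (SE 0.47, unadjusted p = 0.0398, adjusted p = 0.488), with differences of -1.18, -0.31 and -2.65. The difference in replicate 3 was thus the most negative in both comparisons, and the 3 differences spread further for Ox-mtDNA. Fitted to replicates 1 and 2 alone, Cd79b was at -0.65 (SE 0.36, edgeR adjusted p = 0.448) for Ox-mtDNA against PBS and at -1.35 (SE 0.36, adjusted p = 1) for mtDNA against PBS. Without Ox-mtDNA replicate 2 the first of these comparisons gave -1.84 (SE 0.38, adjusted p = 0.409). Between the treatments the log2 fold change was 0.43 (SE 0.47, adjusted p = 1) for Ox-mtDNA against mtDNA, and the 2 groups overlapped. Both comparisons with PBS share the PBS libraries, so their values are not independent.

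Cd79a, the partner chain Ig-alpha (ENSMUSG00000003379, chr7:24596806-24601622, plus strand), had 63.6, 182 and 35.6 CPM in replicates 1, 2 and 3 of Ox-mtDNA, 41.9, 33.4 and 48.6 CPM in mtDNA, and 80.9, 77.9 and 63.7 CPM in PBS. The mtDNA libraries were all below the PBS libraries, while the Ox-mtDNA libraries ran from within the mtDNA range to above every other library. The log2 fold change was -0.85 (SE 0.54, edgeR adjusted p = 1) for mtDNA against PBS, and same-numbered libraries differed by -0.95, -1.22 and -0.39. For Ox-mtDNA against PBS it was 0.34 (SE 0.54, adjusted p = 0.978), and the same-numbered differences were -0.35, 1.23 and -0.84. Its sign thus rested on replicate 2, and without that library it was -0.59 (SE 0.33, adjusted p = 0.532).

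The chains form a dimer, and their ratio, picked after the values had been seen and given without a test, does not depend on how libraries are scaled to each other. The TPM of Cd79b divided by that of Cd79a was 0.522, 0.378 and 0.463 in Ox-mtDNA replicates 1, 2 and 3, 0.707, 1.005 and 0.516 in mtDNA, and 0.926, 1.10 and 1.63 in PBS. Every Ox-mtDNA library, replicate 2 included, was below every PBS library, and mtDNA replicate 2 was above PBS replicate 1. In contrast, Ms4a1 divided by Cd79a was 0.325, 0.295 and 0.247 in Ox-mtDNA, 0.341, 0.335 and 0.284 in mtDNA, and 0.299, 0.300 and 0.351 in PBS, a narrow range over libraries in which the level of either gene varied more than 5-fold.

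**Figure D2:**
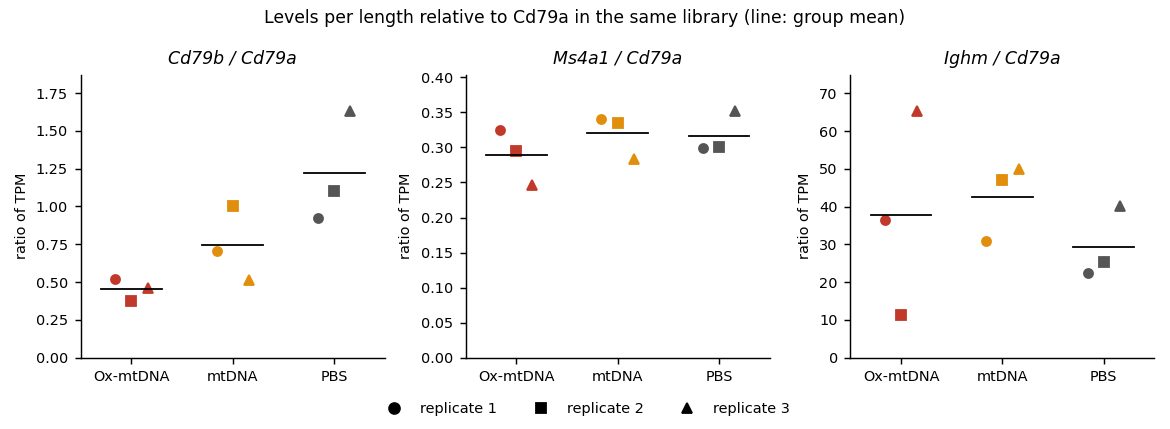
Ratios of TPM within a library, for Cd79b, Ms4a1 and Ighm over Cd79a, by group, with symbols for the replicate number and a line for the mean of 3 libraries. Cd79b over Cd79a is 0.378 to 0.522 in Ox-mtDNA and 0.926 to 1.63 in PBS, whereas Ms4a1 over Cd79a stays between 0.247 and 0.351 in all 9 libraries.

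Blk, a Src family kinase of the B cell receptor (ENSMUSG00000014453, chr14:63610285-63654486, minus strand), had 27.8, 51.8 and 26.3 CPM in replicates 1, 2 and 3 of Ox-mtDNA, 36.2, 32.5 and 28.4 CPM in mtDNA, and 41.9, 39.1 and 44.9 CPM in PBS. The mtDNA libraries were all below the PBS libraries, by a smaller margin than for Cd79a or Cd79b, and Ox-mtDNA replicate 2 was the highest of the 9. The log2 fold change was -0.37 (SE 0.31, edgeR adjusted p = 1) for mtDNA against PBS and -0.25 (SE 0.31, adjusted p = 0.950) for Ox-mtDNA against PBS. Without Ox-mtDNA replicate 2 the second was -0.65 (SE 0.23, edgeR unadjusted p = 0.028, adjusted p = 0.409).

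Cd22, the inhibitory coreceptor (ENSMUSG00000030577, chr7:30564827-30579759, minus strand), had 23.1, 22.7 and 13.7 CPM in replicates 1, 2 and 3 of Ox-mtDNA, 7.31, 8.43 and 18.4 CPM in mtDNA, and 19.86, 22.43 and 17.99 CPM in PBS. It was lowest in mtDNA replicates 1 and 2, and mtDNA replicate 3 lay within the range of PBS. Ox-mtDNA replicate 3 was also below all PBS libraries. The log2 fold change for mtDNA against PBS was -0.82 (SE 0.42, edgeR adjusted p = 1), and the same-numbered differences were -1.44, -1.41 and 0.04. For Ox-mtDNA against PBS it was -0.02 (SE 0.41, adjusted p = 0.9996). Cd22 shares 463 exonic bases with Gm29439 on the opposite strand, and counting without strand cannot tell their reads apart. Gm29439 had 584 counts over the 9 libraries, against 3003 for Cd22. No exon of the other 7 genes was shared with another gene.

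Ms4a1, the surface protein CD20 (ENSMUSG00000024673, chr19:11227039-11243605, minus strand), followed Cd79a more closely than any other gene did. It had 43.7, 114 and 18.5 CPM in replicates 1, 2 and 3 of Ox-mtDNA, 30.1, 23.6 and 29.1 CPM in mtDNA, and 51.1, 49.3 and 47.2 CPM in PBS. PBS libraries were tight and all mtDNA libraries were below them, while Ox-mtDNA held both the highest and the lowest of the 9. The log2 fold change was -0.83 (SE 0.56, edgeR adjusted p = 1) for mtDNA against PBS, with differences of -0.76, -1.06 and -0.70. For Ox-mtDNA against PBS it was 0.25 (SE 0.55, adjusted p = 0.9996), with differences of -0.23, 1.20 and -1.35, and it was -0.67 without Ox-mtDNA replicate 2.

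Ebf1 and Pax5 are the transcription factors of the set. Ebf1, which acts early in B lineage specification (ENSMUSG00000057098, chr11:44508144-44898918, plus strand), had 12.02, 55.49 and 9.596 CPM in replicates 1, 2 and 3 of Ox-mtDNA, 14.3, 11.8 and 18.3 CPM in mtDNA, and 16.89, 23.1 and 15.98 CPM in PBS. The groups overlapped, and Ox-mtDNA replicate 2 stood above the other 8 libraries. The log2 fold change was 0.46 (SE 0.64, edgeR adjusted p = 0.963) for Ox-mtDNA against PBS, -0.80 without that library, and -0.33 (SE 0.64, adjusted p = 1) for mtDNA against PBS. Same-numbered differences were -0.491, 1.264 and -0.736 for Ox-mtDNA against PBS and -0.245, -0.97 and 0.197 for mtDNA against PBS.

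Pax5, which commits cells to the B lineage and activates Cd79a (ENSMUSG00000014030, chr4:44524757-44710487, minus strand), had 45.8, 107 and 15.9 CPM in replicates 1, 2 and 3 of Ox-mtDNA, 43.9, 42.5 and 16.8 CPM in mtDNA, and 54.0, 59.2 and 6.04 CPM in PBS. Replicate 3 was the lowest library in every group. Against the mean of replicates 1 and 2 of its own group, replicate 3 of Pax5 differed by -2.10 in Ox-mtDNA, -1.34 in mtDNA and -3.13 in PBS on the log2 scale. The median over genes of 50 to 55% GC, the range that holds Pax5 at 50.6%, was -0.05, -0.14 and -0.10 in the same groups. Genes of higher GC content were low in replicate 3, with medians of -1.05, -1.16 and -1.34 at 55 to 60% GC and -1.95, -1.95 and -2.08 at 60% or more. The part of GC content in the low Pax5 of replicate 3 was not tested. The log2 fold change was 0.50 (SE 0.91, edgeR adjusted p = 0.9996) for Ox-mtDNA against PBS and -0.21 (SE 0.90, adjusted p = 1) for mtDNA against PBS. Its sign differed between replicates in both comparisons, with differences of -0.24, 0.85 and 1.40 for Ox-mtDNA and -0.30, -0.48 and 1.48 for mtDNA, and it turned to -0.38 without Ox-mtDNA replicate 2 in the first comparison.

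Taken over the 8 genes, mtDNA against PBS had 8 negative fold changes and a median of -0.60, where the median of all tested genes was 0.02 and 48% of them were negative. Same-numbered medians were -0.624, -1.011 and -0.235 in replicates 1, 2 and 3. In replicate 3 the differences of Pax5 (1.48), Ebf1 (0.20) and Cd22 (0.04) were positive. With the replicate number as a block, 7 of the 8 fold changes were negative. In 4 of the 8, Cd79a, Cd79b, Ms4a1 and Blk, all mtDNA libraries were below all PBS libraries, against 4.96% of all genes that were lower and 5.58% that were higher without overlap. At an unadjusted p under 0.05 in the fit to all 9 libraries, Cd79b alone passed, 1 of 8 against 2.62% of all genes. That fit took its spread from all 3 groups. Fitted to the 6 libraries of the comparison, edgeR's unadjusted p was 0.0284 for Cd79a, 0.0171 for Ms4a1 and 0.000793 for Cd79b. Of 16239 genes, 447 passed there. Without Ox-mtDNA replicate 2 the p-values were 0.0217, 0.0414 and 0.00168, and 588 of 18456 genes passed. The rest of the 8 stayed above 0.05 in both fits. None of the 8 passed the adjusted threshold.

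For Ox-mtDNA against PBS, 3 of the 8 fold changes were negative and 5 positive, with a median of 0.17, against a median of 0.06 and 46.2% negative over all tested genes. Cd79b was the one gene without overlap, 1 of 8 against 8.08% of all genes that were lower and 7.39% that were higher, and the one with an unadjusted p under 0.05, against 9.81% of all genes. For Ox-mtDNA against mtDNA all 8 fold changes were positive, with a median of 0.75 against 0.04 over all genes, of which 45.8% were negative. Same-numbered medians of the 8 were 0.351, 1.371 and -0.436 in replicates 1, 2 and 3. In replicate 3 the difference was negative for all 8, from -0.93 for Ebf1 to -0.06 for Ighm. The highest fitted values were 1.18 for Cd79a (SE 0.54) and 1.08 for Ms4a1 (SE 0.56), with an adjusted p of 1 for each with edgeR. At an unadjusted p under 0.05, 0 of the 8 passed, against 2.4% of all genes. Both groups overlapped for all 8, where 2.79% of all genes were lower and 2.04% higher without overlap. None of the 8 passed the adjusted threshold in either comparison.

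**Figure D3:**
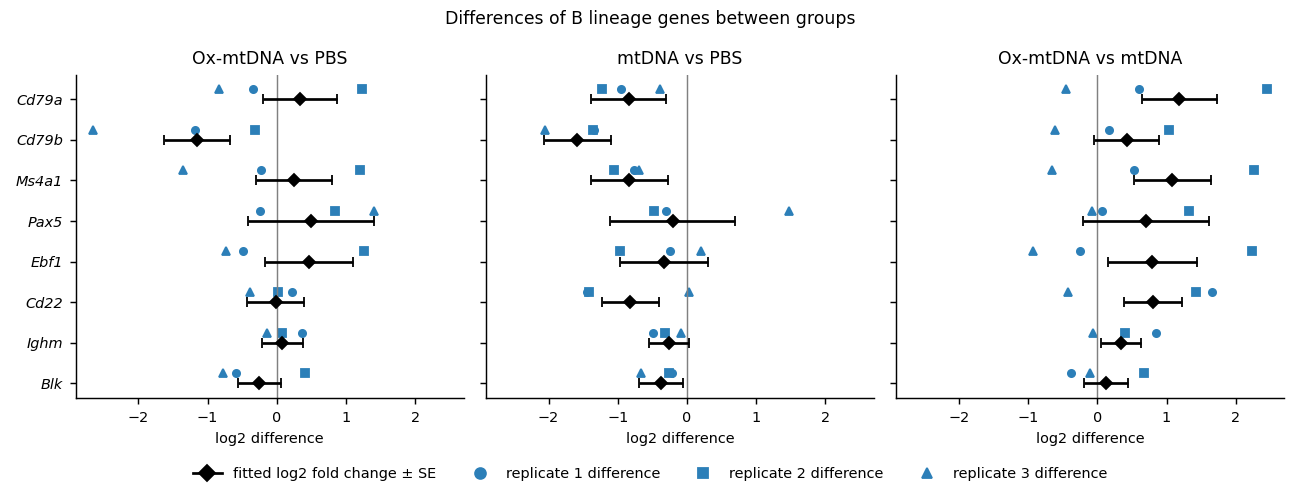
Fitted log2 fold change with its standard error (black) and the log2 differences within each replicate number (blue) for the 8 genes in the 3 comparisons. For mtDNA against PBS all 8 fitted values lie left of 0, from -1.58 for Cd79b to -0.21 for Pax5, and in both comparisons of Ox-mtDNA the replicate 2 difference lies right of the replicate 3 difference for every gene but Pax5 against PBS.

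Many of the Ox-mtDNA values moved with 1 library. Ox-mtDNA replicate 2 was the highest of the 9 libraries for Cd79a, Ms4a1, Pax5, Ebf1 and Blk, and the 7 genes other than Ighm summed to 249, 600 and 136 CPM in replicates 1, 2 and 3 of Ox-mtDNA, to 203, 185 and 184 CPM in mtDNA and to 338, 355 and 298 CPM in PBS. Without it, 7 of 8 fold changes were negative for Ox-mtDNA against PBS and 4 of 8 for Ox-mtDNA against mtDNA. Against mtDNA, Cd79a was then at 0.26 and Ms4a1 at 0.17, while Cd22 at 0.69 and Ighm at 0.39 stayed near their values with all libraries. In the same library Siglech was at 1194 CPM, the lowest of the 9. A list of 20 pDC markers summed there to 5750 CPM, against 8194 to 14210 CPM in the other 8. Of these 20, 16 were negative for Ox-mtDNA against PBS (median -0.42), with same-numbered medians of -0.04, -1.02 and 0.06 in replicates 1, 2 and 3. Lower without overlap were 6 of 20, against 8.08% of all genes, and 4 had an unadjusted p under 0.05, against 9.81%. DESeq2 called Tlr7 of that list, named after its values had been seen, lower in this comparison (adjusted p = 0.00157). In bulk libraries of sorted cells, fewer cells of a type and less RNA per cell cannot be told apart. The part that B cells carried through the sort had in these levels was not tested.

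Markers of other cells gave summed levels that can be set beside these values. The 14 T cell markers summed to 53.1 to 89.3 CPM in Ox-mtDNA, 76.9 to 103.6 CPM in mtDNA and 80.6 to 92.8 CPM in PBS, and the highest of them, Cd247, was at 10.9 to 33.5 CPM over the 9 libraries. Cd3d and Cd3e, chains of the T cell receptor complex named after their values had been seen, were at most at 2.89 and 1.14 CPM. DESeq2 called Cd3d higher (adjusted p = 0.0412) and Cd8a lower (adjusted p = 0.0403) for Ox-mtDNA against PBS. The 7 erythroid markers summed to at most 1.06 CPM. The 8 NK cell markers summed to 20.8 to 124.7 CPM in Ox-mtDNA, 65.2 to 125.3 CPM in mtDNA and 51.6 to 74.7 CPM in PBS, most of it Klrk1. The 11 monocyte and macrophage markers, of which Ccr2 is also known in pDCs, summed to 465 to 839 CPM in Ox-mtDNA, 630 to 888 CPM in mtDNA and 823 to 1774 CPM in PBS. The 9 neutrophil markers summed to 12.7 to 22.7 CPM in Ox-mtDNA, 4.46 to 16.6 CPM in mtDNA and 4.23 to 22.7 CPM in PBS. The 8 markers of type 1 conventional dendritic cells summed to 251 to 382 CPM in Ox-mtDNA, 189 to 573 CPM in mtDNA and 324 to 643 CPM in PBS. Of them, 7 of 8 were negative for Ox-mtDNA against PBS (median -0.92), and 4 of 8 were lower without overlap, against 8.08% of all genes. The 8 markers of type 2 conventional dendritic cells summed to 103 to 199 CPM in Ox-mtDNA, 168 to 245 CPM in mtDNA and 231 to 249 CPM in PBS. DESeq2 called Sirpa of that list lower for Ox-mtDNA against PBS (adjusted p = 0.00834). The part of these other cells in the values of the 8 genes was not tested.

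**Figure D4:**
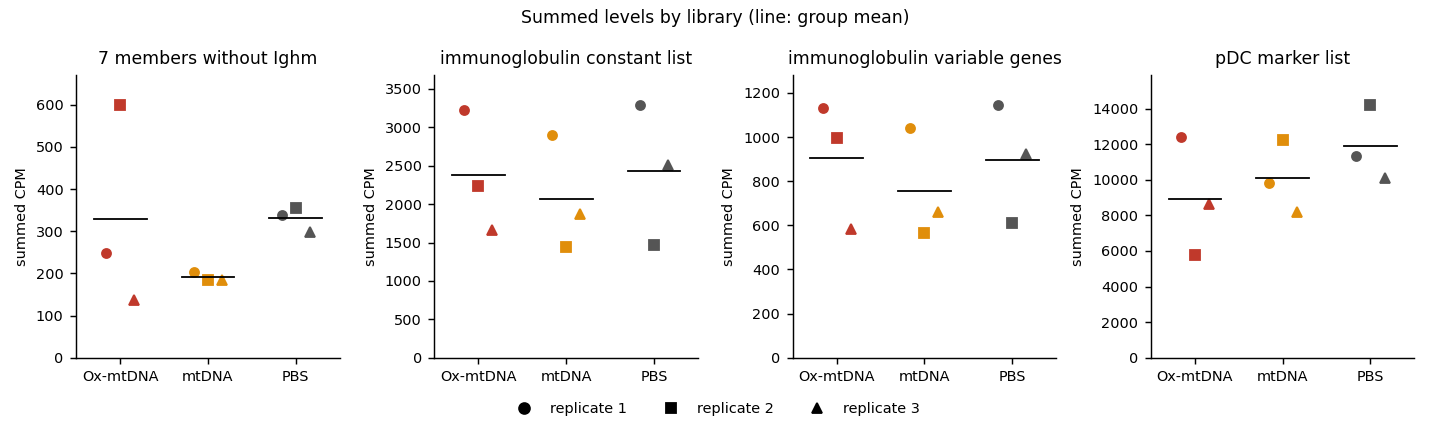
Summed CPM by library for the 7 genes other than Ighm, 12 immunoglobulin constant region and joining chain genes, the immunoglobulin variable genes, and 20 pDC markers, with symbols for the replicate number and a line for the mean of each group. The 7 genes are lower in all mtDNA libraries (184 to 203 CPM) than in all PBS libraries (298 to 355 CPM), while for both immunoglobulin sums replicate 1 is the highest of its group.

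The rest of the pathway was read from lists of genes around the 8. None of these lists had a gene past the adjusted threshold with edgeR in any comparison. Unadjusted p under 0.05 are counted list by list for the comparisons with PBS. Among 18 other B cell surface genes, 17 had negative fold changes for mtDNA against PBS (median -0.60) and 14 for Ox-mtDNA against PBS (median -0.43), and in each comparison 5 of 18 were lower without overlap, against 4.96% of all genes for mtDNA and 8.08% for Ox-mtDNA. At an unadjusted p under 0.05, 2 of 18 passed for mtDNA, against 2.62% of all genes, and 4 of 18 for Ox-mtDNA, against 9.81%, all of them lower, and DESeq2 called Cd180 for Ox-mtDNA (adjusted p = 0.0309). Ly6d, a surface protein of B cell progenitors that also marks pDC precursors, had 593, 448 and 384 CPM in replicates 1, 2 and 3 of Ox-mtDNA, 668, 685 and 344 CPM in mtDNA, and 840, 940 and 1123 CPM in PBS. Like Cd79b, it was lower in all 6 libraries given either DNA than in all 3 of PBS. Cd180, a Toll-like receptor homologue of B cells, had 163, 124 and 93.1 CPM in Ox-mtDNA, 237, 372 and 115 CPM in mtDNA, and 332, 491 and 437 CPM in PBS. All Ox-mtDNA libraries of Cd180 were below all PBS libraries, and mtDNA replicate 2 lay within the PBS range. Tnfrsf13b, the receptor TACI for BAFF and APRIL, had 117, 75.3 and 101 CPM in Ox-mtDNA, 119, 161 and 114 CPM in mtDNA, and 140, 182 and 278 CPM in PBS, with the same pattern of overlap.

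Of 23 genes that signal downstream of the receptor, 13 were negative for mtDNA against PBS (median -0.08) and 12 for Ox-mtDNA against PBS (median -0.04), with 0 at an unadjusted p under 0.05 in either. Plcg2, the phospholipase of the receptor pathway, had 526, 423 and 549 CPM in Ox-mtDNA, 405, 468 and 495 CPM in mtDNA, and 530, 483 and 416 CPM in PBS, with all groups overlapping. Lyn, a Src family kinase expressed in many blood cells, had 243, 205 and 336 CPM in Ox-mtDNA, 272, 276 and 428 CPM in mtDNA, and 277, 299 and 454 CPM in PBS. The 3 groups of Lyn overlapped too, and replicate 3 was the highest of each. Of 17 inhibitors and coreceptors, 9 were negative in each comparison with PBS, with medians of -0.09 for Ox-mtDNA and -0.19 for mtDNA. At an unadjusted p under 0.05 there were 2 higher and 1 lower for Ox-mtDNA, and 2 higher and 0 lower for mtDNA. Over all genes, 9.81% passed for Ox-mtDNA and 2.62% for mtDNA. Fcgr2b, an inhibitory Fc receptor named after its values had been seen, had 49.8, 82.3 and 111 CPM in replicates 1, 2 and 3 of Ox-mtDNA, 78.8, 65.7 and 95.6 CPM in mtDNA, and 47.96, 30.1 and 52.3 CPM in PBS. Its mtDNA libraries were all above those of PBS. For mtDNA against PBS, 3 of the 17 were higher without overlap and 1 lower, against 5.58% and 4.96% of all genes. For Ox-mtDNA against PBS, 2 of the 17 were lower and 0 higher, against 8.08% and 7.39%. Ptpn6, the phosphatase SHP-1 that Cd22 recruits, had 765, 258 and 637 CPM in Ox-mtDNA, 575, 809 and 673 CPM in mtDNA, and 783, 959 and 1014 CPM in PBS, and its Ox-mtDNA libraries were all below those of PBS.

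Among 19 other B lineage transcription factors, 11 were negative for Ox-mtDNA against PBS (median -0.09) and 12 for mtDNA against PBS (median -0.16). At an unadjusted p under 0.05, 1 passed for Ox-mtDNA, against 9.81% of all genes, and 2 for mtDNA, against 2.62%, all lower. Tcf4, the factor E2-2 that maintains the pDC fate, had 511, 196 and 524 CPM in Ox-mtDNA, 585, 730 and 601 CPM in mtDNA, and 665, 844 and 1040 CPM in PBS. All Ox-mtDNA libraries were below all others, and replicate 2 was the lowest. Pou2af1, a coactivator at octamer sites, and Ikzf3, the Ikaros family factor Aiolos, were named after their values had been seen, because they did not overlap between mtDNA and PBS. Pou2af1 had 23.0, 37.2 and 11.3 CPM in Ox-mtDNA, 21.8, 12.3 and 15.3 CPM in mtDNA, and 43.5, 41.9 and 28.2 CPM in PBS. Ikzf3 had 22.1, 37.8 and 9.29 CPM in Ox-mtDNA, 16.28, 13 and 15.77 CPM in mtDNA, and 41.7, 46.2 and 24.6 CPM in PBS. The mtDNA libraries of both were below their PBS libraries, and for both the Ox-mtDNA group overlapped with PBS. For mtDNA against PBS, 2 of the 19 factors were lower without overlap and 0 higher, against 4.96% and 5.58% of all genes. For Ox-mtDNA against PBS, 1 was lower and 1 higher, against 8.08% and 7.39%.

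Of 12 tested B cell precursor genes, 8 were negative for Ox-mtDNA against PBS (median -0.44) and 10 for mtDNA against PBS (median -0.46). Of these, 2 passed an unadjusted p of 0.05 for Ox-mtDNA, against 9.81% of all genes, and 1 for mtDNA, against 2.62%, all lower. Dntt, the polymerase that adds bases at immunoglobulin joints, had 209, 50.4 and 210 CPM in Ox-mtDNA, 80.4, 80.2 and 205 CPM in mtDNA, and 94.2, 87.2 and 170 CPM in PBS. Its levels followed the replicate number in mtDNA and PBS, with replicate 3 the highest.

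**Figure D5:**
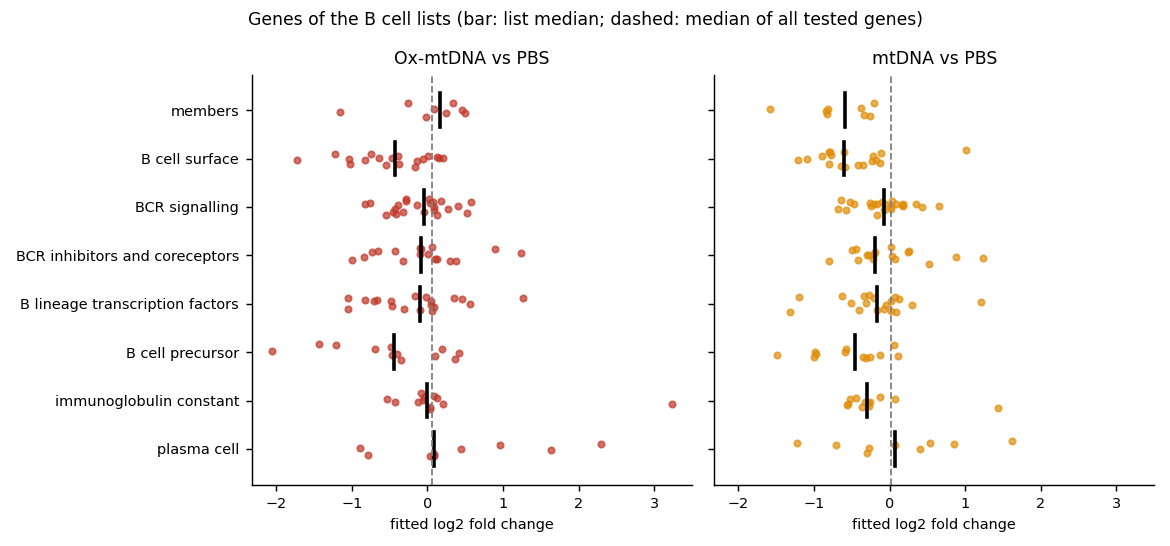
Fitted log2 fold change against PBS of each gene of the 8 and of 7 lists around them, for Ox-mtDNA (left) and mtDNA (right), with the list median as a bar and the median of all tested genes as a dashed line. For mtDNA the 8 genes and the B cell surface list have medians of -0.60, while the signalling list lies at -0.08.

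Most other immunoglobulin genes had negative fold changes for mtDNA against PBS, and none passed the test. Igkc, the kappa light chain constant region, had 960, 913 and 489 CPM in replicates 1, 2 and 3 of Ox-mtDNA, 851, 475 and 572 CPM in mtDNA, and 1003, 484 and 823 CPM in PBS. Igha, the constant region of IgA, had 1594, 813 and 771 CPM in Ox-mtDNA, 1517, 640 and 855 CPM in mtDNA, and 1633, 587 and 1064 CPM in PBS. Replicate 1 was the highest library in each group for both genes, and the groups overlapped. Ighd, the constant region of IgD that is spliced from the same primary transcript as IgM, had 40.4, 94.5 and 60.3 CPM in Ox-mtDNA, 64.2, 71.5 and 70.8 CPM in mtDNA, and 93.5, 101 and 87.8 CPM in PBS, with all mtDNA libraries below those of PBS. Of 12 constant region and joining chain genes, 6 were negative for Ox-mtDNA against PBS (median -0.01) and 10 for mtDNA against PBS (median -0.31), with 0 at an unadjusted p under 0.05 in either. For mtDNA against PBS, 1 of these 12 was lower without overlap and 0 higher, against 4.96% and 5.58% of all genes. Of 168 tested immunoglobulin variable genes, 76 were negative for Ox-mtDNA against PBS (median 0.03) and 129 for mtDNA against PBS (median -0.19). At an unadjusted p under 0.05 there were 2 higher and 2 lower for Ox-mtDNA, against 9.81% of all genes. For mtDNA there were 0, against 2.62%. Variable genes resemble each other closely, and because reads with several alignments were not counted, their levels and their split are uncertain.

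Of 9 plasma cell genes, 2 were negative for Ox-mtDNA against PBS (median 0.09) and 4 for mtDNA against PBS (median 0.07). At an unadjusted p under 0.05 there were 1 higher and 1 lower for Ox-mtDNA, against 9.81% of all genes. For mtDNA there were 1 higher and 0 lower, against 2.62%. The higher one was Prdm1 in both, the factor Blimp-1 that represses Pax5, named after its values had been seen. It had 18.2, 48.6 and 43.95 CPM in replicates 1, 2 and 3 of Ox-mtDNA, 13.1, 11.7 and 44.6 CPM in mtDNA, and 10.6, 5.57 and 6.38 CPM in PBS. All 6 libraries given either DNA were above all 3 of PBS, the opposite order to that of Cd79b. Over all genes, 7.39% were higher without overlap for Ox-mtDNA against PBS and 5.58% for mtDNA against PBS. A link of Prdm1 to Pax5 or Cd79b was not tested. Xbp1, a transcription factor of secretory cells, had 1284, 643 and 829 CPM in Ox-mtDNA, 601, 829 and 1286 CPM in mtDNA, and 757, 1018 and 807 CPM in PBS, with no common direction. Jchain, which joins IgM and IgA into polymers, had 341, 207 and 141 CPM in Ox-mtDNA, 274, 138 and 148 CPM in mtDNA, and 294, 135 and 245 CPM in PBS, and again replicate 1 was the highest in each group.

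The likeness of patterns was measured as the root mean square difference of log2 CPM, each gene centred on its own mean, over the 9 libraries, and is a description without a test. For Cd79a the closest tested gene was Ms4a1 at 0.15, and Ebf1 was at 0.32, where the median over all tested genes was 0.98. The closest genes outside the 8 were Trip10 at 0.26, Mzb1 at 0.27, Rhof at 0.30, Fcrl1 at 0.32 and Rasd1 at 0.32. Mzb1, a chaperone of immunoglobulin assembly in B cells and pDCs, had 26.6, 49.7 and 17.8 CPM in Ox-mtDNA, 20.1, 14.4 and 20.0 CPM in mtDNA, and 28.4, 27.9 and 32.6 CPM in PBS, so it shared with Cd79a the high value of Ox-mtDNA replicate 2 and the low values of mtDNA. Cd79b was less like the others of the 8, at 0.58 from Ms4a1, 0.61 from Blk, 0.65 from Cd79a and 1.38 from Pax5, against a median of 1.10 over all genes. Its closest genes outside the 8 were Ak4 at 0.32, Amd2 at 0.34, Tirap at 0.38, Gm45355 at 0.39 and Rag1 at 0.40. Rag1, a subunit of the recombinase that assembles immunoglobulin genes, had 5.94, 18.2 and 6.81 CPM in Ox-mtDNA, 9.02, 9.48 and 7.01 CPM in mtDNA, and 13.7, 33.7 and 24.1 CPM in PBS. Ak4, Amd2 and Gm45355 were at 3.57 CPM or less in every library.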

How the data were processed

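The authors deposited raw counts per gene, with no normalization, and all 9 columns of counts were used. The submitters' processing notes name fastp 0.23.4, STAR 2.7.11b, featureCounts 2.0.1 and the build GRCm39. Fragments overlapping exons of GENCODE M34 genes were counted without strand, for each gene they overlapped, and without reads of several alignments, per the file headers. Gene length, the deposited other column used here, gave TPM. Groups were taken from the titles.

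In R 4.3.3, genes were filtered with filterByExpr (minimum count 10) of edgeR 4.0.16, scaled with TMM and fitted with one coefficient per group to the 9 libraries (6 residual degrees of freedom) by the robust quasi-likelihood method. The two-sided F-test was adjusted by Benjamini-Hochberg over 17555 genes, at a threshold of 0.05. The fit was also run on simulated counts. These were drawn independently for each library, with no shift shared by the replicate 3 libraries. That run therefore does not measure error rates or power for these data. CPM use TMM factors. Replicates 1 and 2 differed by 15.4 times counting variance in mtDNA, 20.9 in PBS and 165 in Ox-mtDNA (chi-square per degree of freedom). Pairs with replicate 3 differed by 239 to 347 times. Spread between replicates, not depth, thus set the precision, and the main fit left the shift of replicate 3 in that spread. For Ox-mtDNA against PBS the SE of Pax5 was 0.906 in the main fit and 0.412 with the replicate block, and that of Cd79b was 0.475 and 0.41. The lowest count of a member was 137.

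Symbols came from a gene name table (51884 of 57126 IDs matched). The 8 genes and the lists around them were chosen with earlier results of these data known. By rule, the 8 genes, up to 4 genes of highest mean CPM per list, and the 5 nearest in pattern to Cd79a and Cd79b were named, and other names are marked as chosen after their values were seen. GC content came from the longest GENCODE M21 transcript (95.4% of tested genes). Libraries of the same number deviated together from their group means (correlations of 0.487 to 0.897 in every pair). Replicate 1 of a group and replicate 2 of a different group correlated as much (0.524 to 0.708). The numbers thus set replicate 3 apart but do not show that replicates 1 and 2 are paired. The main fit had no term for the replicate number, and the fit with that term was an alternative. Alternatives covered scaling, the tests of DESeq2 1.42.0 and of limma-voom (limma 3.58.1), filters, a replicate block, subsets of replicates and leaving out each library.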

Additional observations from a re-analysis of the deposited data

How the results depend on the processing

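None of the 8 genes passed the adjusted threshold under any of the 19 alternatives in any comparison, and 433 of 456 fold changes (24 values under 19 alternatives) kept their direction. Over all genes, DESeq2 called 328 for Ox-mtDNA against PBS (251 higher, 77 lower) and 10 for mtDNA against PBS (all higher). For Ox-mtDNA against PBS the replicate block gave 1 call and replicates 1 and 2 only, without the block, gave 25, and leaving out any library gave 0 to 0. With the block, replicates 1 and 2 only gave 0 calls in that comparison. For mtDNA against PBS and Ox-mtDNA against mtDNA the block changed no call. At an unadjusted p under 0.05 the block on all 9 libraries passed 3345 genes for Ox-mtDNA against PBS, where the main fit without a block passed 1722. The counts were 998 against 460 for mtDNA against PBS, and 1195 against 422 for Ox-mtDNA against mtDNA. With the block, Cd79b was at -1.33 (edgeR adjusted p = 0.169) for Ox-mtDNA against PBS and at -1.63 (adjusted p = 0.763) for mtDNA against PBS. Over all alternatives the adjusted p of Cd79b was 0.169 to 0.801 and 0.462 to 1 in these comparisons, and its log2 fold change was -1.84 to -0.65 and -1.70 to -1.35.

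Signs turned, and the cause was not tested, for Cd22 in Ox-mtDNA against PBS with upper quartile factors (0.003) and with replicates 1 and 2 only (0.12 without and 0.13 with the block), for Ms4a1 with limma-voom (-0.13), for Ighm without a filter (-0.011), and for Pax5 in mtDNA against PBS with limma-voom (0.29) and with the block (0.21). Leaving out each library in turn gave ranges across 0 for Ox-mtDNA against PBS in Ighm (-0.03 to 0.23), Cd22 (-0.17 to 0.14), Cd79a (-0.59 to 0.68), Ms4a1 (-0.67 to 0.62), Pax5 (-0.38 to 0.92) and Ebf1 (-0.80 to 0.81). The same held for Pax5 in mtDNA against PBS (-0.72 to 0.19) and, for Ox-mtDNA against mtDNA, for Cd79b (-0.25 to 0.76), Pax5 (-0.16 to 1.13), Ebf1 (-0.46 to 1.14) and Blk (-0.27 to 0.27).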
